A study of Homo sapiens with 8 samples.

Results

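The 5′ end sites of cytosolic tRNAs, the first 9 positions of each tRNA reference, were examined for contacts with 2 human dihydrouridine synthases, DUS1L and DUS2L. A site was a sense-strand position with at least 1 crosslink count in any library, and its position was numbered from 1 at the first base of the reference. This rule took 1104 of 8363 tRNA sites and 347384 of 2465323 tRNA counts. They lay on 211 of 252 tRNA references, which fall into 48 of 50 tRNA families, a family being all references of 1 amino acid and anticodon.

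The data came from 8 iCLIP libraries. Their source was Flp-In T-REx 293 cells, a human embryonic kidney line, that carry a tetracycline-inducible 3xFLAG-DUS1L or 3xFLAG-DUS2L transgene. iCLIP joins a protein to the RNA it touches, recovers the RNA with the protein, and counts the positions of contact. All cells received tetracycline at 1 µg/mL for 12 h to induce the tagged enzyme, and for a further 12 h either the inducer alone (untreated) or the inducer plus 5-chlorouridine (5-ClUrd) at 100 µM. Each of the 4 groups (DUS1L untreated, DUS1L 5-ClUrd, DUS2L untreated, DUS2L 5-ClUrd) had 2 libraries, called biological replicates by the series, and p-values measure only the spread between these libraries. No group without a tagged enzyme was analysed here, so that contacts common to any induced and tagged protein cannot be told apart from those of the enzymes.

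As background, the 5′ strand of a tRNA begins with 7 bases that pair with the 3′ end to form the acceptor stem, followed by positions 8 and 9, an unpaired junction that leads into the D arm. Dihydrouridine synthases reduce uridine to dihydrouridine, which is found mainly in the D loop and not at the 5′ end. 5-ClUrd, a chlorinated form of uridine, enters cellular RNA and can hold such an enzyme covalently at the base on which it works. The 5′ end sites therefore lie just upstream of the region in which these enzymes are known to work.

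The libraries held between 7333 and 815735 sense tRNA counts. The thinnest was the second untreated DUS1L library. A count of 0 there allows a 5′ end share of up to 0.0409% (3 counts of the tRNA total), against at most 0.00286% in any other library. Wilson 95% intervals of a family's 5′ end share reached a half-width of at most 16.96 percentage points from 20 family counts upward and 2.91 points from 1000 upward, and intervals and limits cover counting error only. Site counts levelled off in the deep libraries: no site exceeded 1436 counts, and 34 of the 1104 5′ end sites exceeded 1000 in any library, 32 of them in DUS2L libraries. The DUS2L site files carry a name that speaks of premapping to ncRNA, which the DUS1L files lack, so that the enzyme and the making of the files cannot be told apart in any comparison of DUS2L with DUS1L.

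The 5′ end took a larger share of tRNA counts in DUS2L libraries than in DUS1L libraries, with and without the analogue, to an extent that depended on the sites with the highest counts. Positions 1 to 9 held 2.57% and 4.02% of sense tRNA counts in the untreated DUS1L libraries, and 7.07% and 8.07% in the 5-ClUrd DUS1L libraries. They held 22.6% and 20.1% in the untreated DUS2L libraries, and 23.6% and 29.8% in the 5-ClUrd DUS2L libraries. All 4 DUS2L values lay above all 4 DUS1L values, and within each enzyme both 5-ClUrd libraries lay above both untreated libraries. With 5-ClUrd the mean was 26.7% ± 4.33 (SD, n = 2) in DUS2L and 7.57% ± 0.706 (SD, n = 2) in DUS1L, a difference of 19.1 percentage points. Untreated, the means were 21.4% ± 1.76 (SD, n = 2) and 3.30% ± 1.03 (SD, n = 2), a difference of 18.1 points. The analogue was accompanied by 4.27 points more in DUS1L and 5.34 points more in DUS2L. An exact two-sided permutation test of 2 against 2 libraries cannot go below p = 0.333, the value obtained in each of these 4 comparisons. Without sites above 500 counts the enzyme means were 22.1% (DUS2L) and 9.09% (DUS1L) with 5-ClUrd, and 8.73% and 6.92% untreated. With each site counted once they were 12.4% and 12.6% with 5-ClUrd, where the libraries overlapped, and 12.0% and 7.45% untreated. The treatment difference in DUS2L was 13.4 points when sites above 500 counts were left out. It was 0.463 points when each site was counted once whatever its count, where the untreated and 5-ClUrd libraries overlapped. The treatment difference in DUS1L was 2.17 points without sites above 500 counts, where the untreated and 5-ClUrd libraries overlapped. Without the second 5-ClUrd DUS2L library the DUS2L difference was 2.28 points, and without the first it was 8.40.

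The D loop, positions 14 to 21, gave a smaller contrast between the enzymes. It held 21.6% ± 0.260 (SD, n = 2) of tRNA counts in DUS2L with 5-ClUrd and 18.9% ± 0.243 (SD, n = 2) in DUS1L with 5-ClUrd. The DUS2L to DUS1L ratio with 5-ClUrd was 1.14 in the D loop and 3.53 at the 5′ end, and untreated it was 1.65 in the D loop and 6.48 at the 5′ end. The difference between these ratios was not tested. They use all counts. With each site counted once, the 5′ end ratio was 0.987 with 5-ClUrd and 1.61 untreated, and the D loop was not counted in that way.

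Within the 5′ end, counts gathered at its margins. Position 1 held 0 counts in all 8 libraries. The first position with counts was position 2, on tRNAs and likewise on 5S rRNA, which had 92 counts at position 2 and 8 at positions 3 to 9. Whether counts at position 2 mark a contact or only the first position that can be counted was not tested. This limit holds for all values at position 2 below. Position 2 held 2.503% ± 0.291 (SD, n = 2) of tRNA counts in DUS1L with 5-ClUrd and 10.2% ± 0.248 (SD, n = 2) in DUS2L with 5-ClUrd. Position 9, the last base before the D arm, held 2.46% ± 0.234 (SD, n = 2) and 5.46% ± 0.701 (SD, n = 2). No position from 3 to 8 held more than 0.728% on average in DUS1L with 5-ClUrd (position 6), or more than 2.25% in DUS2L with 5-ClUrd (position 3). Position 10, just beyond the 5′ end, stood at 1.33% and 2.58%.

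**Figure D1:**
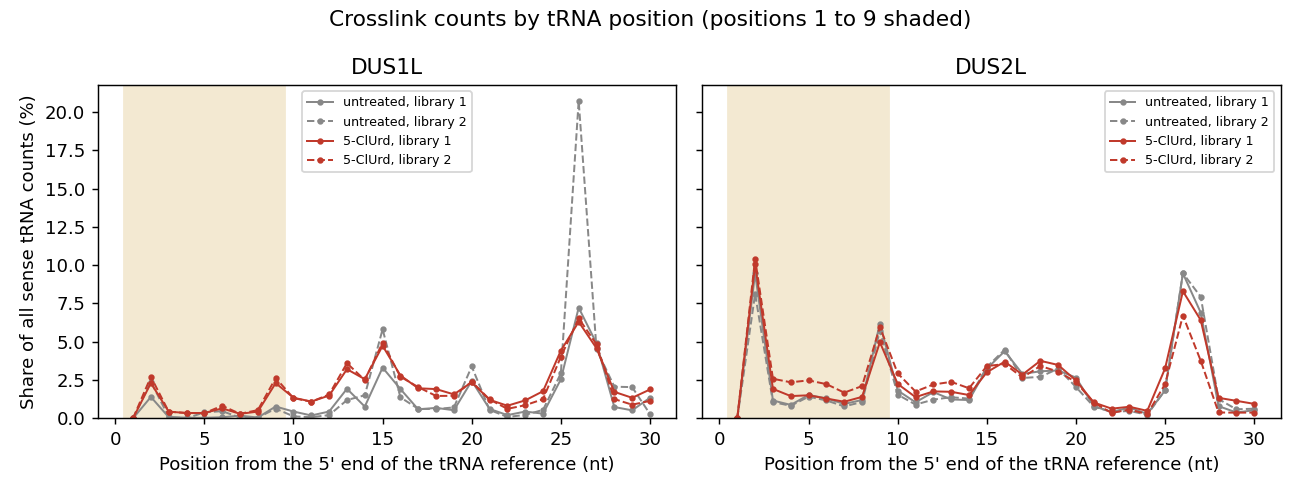
Share of all sense tRNA counts (y axis, percent) at positions 1 to 30 from the 5′ end (x axis), 1 line per library, DUS1L on the left and DUS2L on the right. Grey lines are untreated and red lines 5-ClUrd libraries, and positions 1 to 9 are shaded; both enzymes show maxima at positions 2 and 9 within the shaded part, and in DUS2L position 2 reaches 8.12% to 10.4% in every library.

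In DUS1L the mean junction share differed more with treatment than the mean acceptor stem share, which includes position 2. Acceptor stem positions 1 to 7 held 1.76% and 3.35% of tRNA counts in the untreated DUS1L libraries and 4.34% and 4.91% in the 5-ClUrd libraries. Junction positions 8 and 9 held 0.810% and 0.668% untreated and 2.73% and 3.16% with 5-ClUrd, 3.98 times the untreated mean. In DUS2L the stem held 15.2% and 13.3% untreated and 17.3% and 21.7% with 5-ClUrd. The DUS2L junction held 7.37% and 6.79% untreated and 6.36% and 8.06% with 5-ClUrd, and the groups overlapped (exact permutation p = 1). Position 2 on its own overlapped between the DUS1L groups, with 1.39% and 2.39% untreated and 2.30% and 2.71% with 5-ClUrd (exact permutation p = 0.667). The DUS1L mean with 5-ClUrd was 1.33 times the untreated mean at position 2 and 3.66 times at positions 3 to 8. It was 3.54 times at position 9 and 4.74 times at position 10, beyond the 5′ end. The stem and junction differences in DUS1L each gave an exact permutation p of 0.333, the lowest possible.

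In most families the leading 5′ position, that with the highest mean share, was 2 or 9. A leading position need not dominate. In DUS2L with 5-ClUrd it held 16.1% of the 5′ end share in tRNA-His-GTG and 21.5% in tRNA-Asp-GTC, but 99.8% in tRNA-SeC-TCA. Among families with at least 100 counts in each library of a group, position 2 led in 24 of 43 families in DUS1L with 5-ClUrd and in 30 of 47 in DUS2L with 5-ClUrd. Position 9 led in 13 and 13, and position 6 in 4 and 2. The remaining 2 families of each group, tRNA-Glu-CTC and tRNA-Leu-CAG, had no 5′ end count at all. Their 0 counts stood against 10624 and 21197 family counts in the 5-ClUrd DUS2L libraries, which allow shares of up to 0.0282% and 0.0142%. The other glutamate family, tRNA-Glu-TTC, stood at 30.9% in the same libraries. Of the other leucine families, tRNA-Leu-AAG stood at 0.0624% and 0.477%, tRNA-Leu-CAA at 5.77% and 3.65%, tRNA-Leu-TAA at 18.2% and 24.3%, and tRNA-Leu-TAG at 19.2% and 23.4%. Of single tRNA references with at least 100 5′ end counts, position 2 led in 57 of 100 and position 9 in 36 with DUS1L and 5-ClUrd, and in 62 and 22 of 85 with DUS2L and 5-ClUrd.

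**Figure D2:**
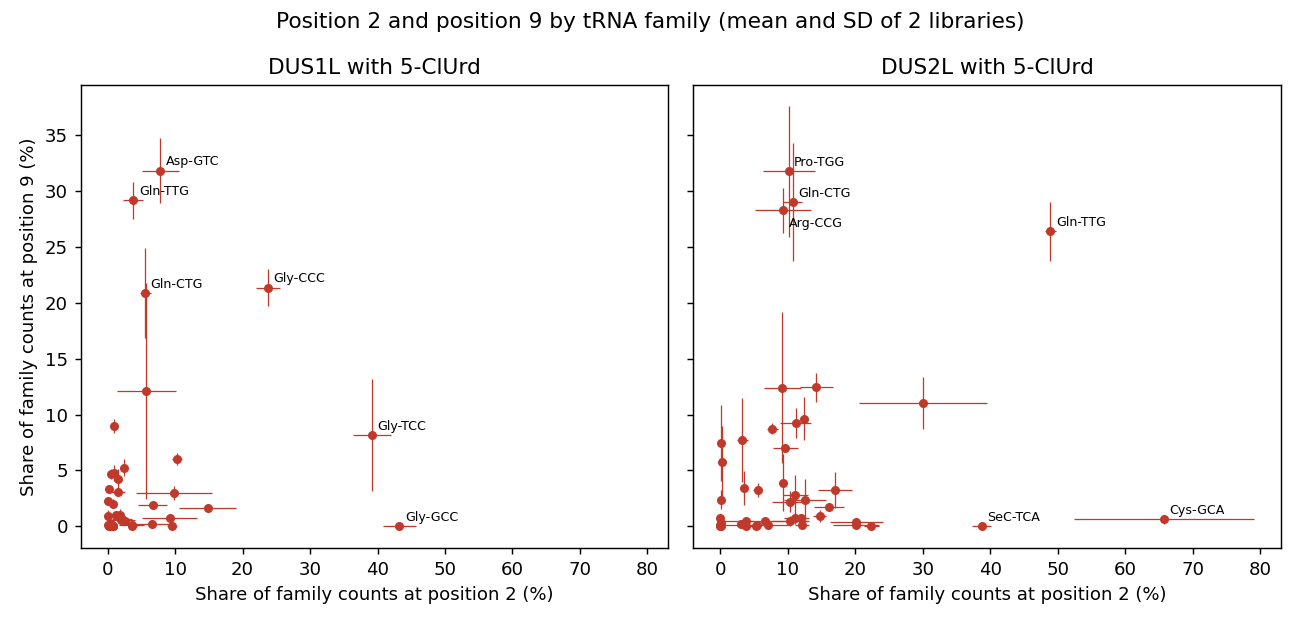
Share of family counts at position 2 (x axis, percent) and position 9 (y axis, percent) in the 5-ClUrd libraries, 1 point per tRNA family with at least 100 counts in each, with bars of 1 SD over 2 libraries. Families range from near 0 on both axes to high on 1 of them; tRNA-Gly-GCC sits at 43.2% on position 2 in DUS1L, tRNA-Asp-GTC at 31.9% on position 9 in DUS1L, and tRNA-Gln-TTG in DUS2L, which sums 1 reference at position 2 and 1 that leads at position 9, at 48.9% and 26.4%.

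Families spread widely in their 5′ end share. The median family share at positions 1 to 9 was 5.81% over 43 families in DUS1L with 5-ClUrd (range 0% to 69.0%) and 17.2% over 47 families in DUS2L with 5-ClUrd (range 0% to 80.6%). In 9 and 23 of these families the share exceeded 20%, and in 8 and 7 it lay under 1%. Across the 42 families with at least 100 counts in each 5-ClUrd library of both enzymes, the mean shares were similarly ordered in the 2 enzymes (Spearman's rho 0.854, Pearson's r 0.691). These points share libraries and reference sequences, so the correlation is a description. Both DUS2L libraries lay above both DUS1L libraries in 28 of the 42 families and below both in 8. How often other parts of the tRNAs separated likewise was not counted.

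Aspartate tRNA had the highest 5′ end share in DUS1L with 5-ClUrd among families with at least 100 counts in each library. In tRNA-Asp-GTC positions 1 to 9 held 71.1% and 66.8% of family counts in the 5-ClUrd DUS1L libraries, and 36.7% and 44.4% in the 5-ClUrd DUS2L libraries, so that the enzymes did not overlap and DUS1L was higher. Position 9 held 31.9% and position 6 13.6% of the family in DUS1L with 5-ClUrd. The untreated DUS1L libraries had 92 and 3 counts of the family, too few for the test. The main reference, tRNA-Asp-GTC-2-8, stands for 11 gene copies, of which that on GRCh38.p14 chromosome 12, 96036021 to 96036092, is 72 bases long.

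Glycine tRNAs were the next highest in DUS1L. With 5-ClUrd, DUS1L libraries gave tRNA-Gly-TCC 51.9% and 57.0%, tRNA-Gly-CCC 44.7% and 52.8%, and tRNA-Gly-GCC 47.1% and 43.3%. In tRNA-Gly-GCC nearly all of this lay at position 2, which held 95.7% of the 5′ end counts. In tRNA-Gly-CCC it was divided between position 2 (23.8% of the family) and position 9 (21.4%).

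Glutamine tRNAs used the junction. In tRNA-Gln-TTG the 5-ClUrd DUS1L libraries gave 37.5% and 31.5%, of which 84.6% lay at position 9. tRNA-Gln-CTG stood at 31.6% and 33.6%, with 20.9% of the family at position 9. In DUS2L with 5-ClUrd the 2 families reached 73.7% and 78.0% (tRNA-Gln-TTG) and 50.7% and 47.5% (tRNA-Gln-CTG). In tRNA-Gln-TTG the leading position of the family was 9 in DUS1L and 2 in DUS2L, but the references behind these values differed. tRNA-Gln-TTG-2-1 led at position 9 in both enzymes, with 31.1% of its counts there in DUS1L and 39.0% in DUS2L. tRNA-Gln-TTG-3-1, with at least 100 counts per library in DUS2L and not in DUS1L, had all of its 606 and 578 counts at position 2.

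Cysteine tRNA had the highest 5′ end share in DUS2L with 5-ClUrd among families with at least 100 counts in each library. tRNA-Cys-GCA held 84.3% and 76.8% in those libraries and 61.5% and 62.8% in the untreated ones, which had only 52 and 43 family counts. Position 2 carried 81.6% of these 5′ end counts with 5-ClUrd. DUS1L with 5-ClUrd stood at 26.9% and 21.3% for the same family. In DUS2L the references tRNA-Cys-GCA-1-1 (357 and 411 counts) and tRNA-Cys-GCA-6-1 (350 and 411 counts) had 100% of their counts at positions 1 to 9, so that the family value rests largely on single references, which are uncertain where copies share reads.

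Long-armed tRNAs, called type II, bring serine, leucine or selenocysteine and carry an extended variable arm. Their 5′ end shares were lower than those of the others in the median, though single families overlapped. In DUS2L with 5-ClUrd tRNA-Leu-TAG stood at 21.3% and tRNA-Thr-CGT, of the others, at 2.58%. Type II tRNAs are also longer, so that 9 positions are a smaller part of them. The gene of tRNA-Leu-TAG-1-1 has 82 bases and that of tRNA-Gly-TCC-1-1 has 72. Their median share was 0.881% over 8 families against 8.995% over 35 other families in DUS1L with 5-ClUrd. In DUS2L with 5-ClUrd it was 7.68% over 10 families against 24.2% over 37. tRNA-SeC-TCA, which brings selenocysteine, was the highest of them in DUS2L with 37.7% and 39.9%, and 99.8% of its 5′ end counts lay at position 2.

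**Figure D3:**
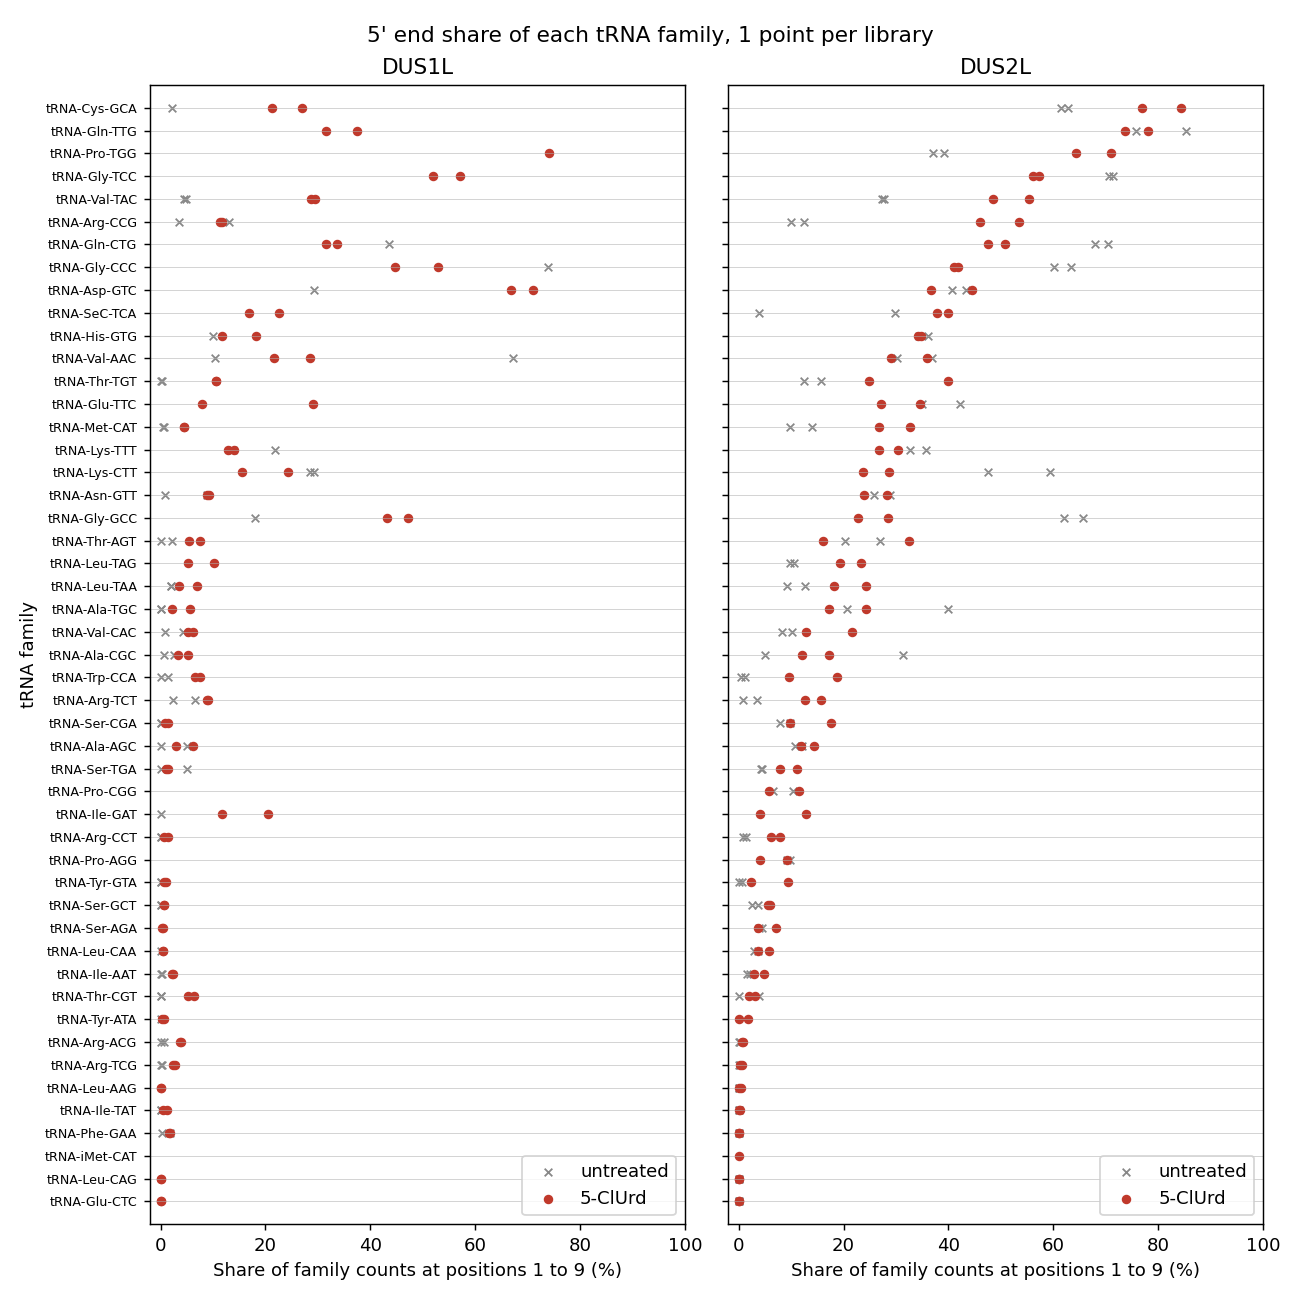
Share of each tRNA family's counts at positions 1 to 9 (x axis, percent) by family (y axis, ordered by the 5-ClUrd DUS2L mean), 1 point per library with at least 20 family counts. Red points are 5-ClUrd and grey crosses untreated libraries; tRNA-Gly-GCC, tRNA-Lys-CTT and tRNA-Gly-CCC in DUS2L have their untreated crosses to the right of the red points, while tRNA-Arg-CCG and tRNA-Pro-TGG have them to the left.

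References of 1 family could differ widely. Among references with at least 100 counts in each 5-ClUrd library, 23 of 150 in DUS1L and 22 of 148 in DUS2L had no 5′ end count, while 1 and 4 had all of their counts there. In the lysine family tRNA-Lys-TTT, the reference tRNA-Lys-TTT-4-1 (chromosome 6, 27591814 to 27591886) had 99.7% and 99.8% of its counts at positions 1 to 9 in the 5-ClUrd DUS1L libraries and 97.6% and 98.5% in the 5-ClUrd DUS2L libraries. The reference tRNA-Lys-TTT-1-1 (chromosome 16, 73478317 to 73478389) had 0% in all 4, over 706 to 2833 counts. tRNA-Lys-TTT-6-1 (chromosome 6, 27334990 to 27335062) lay between them at 16.8% and 16.8% in DUS1L and 38.7% and 39.8% in DUS2L. Within tRNA-Gln-CTG, 4 references lay between 30.3% and 33.6% in DUS1L, and 5 references of that family between 34.0% and 69.6% in DUS2L. Near-identical copies share reads, so that values of single references are uncertain, and the part of read assignment in these extremes was not tested. The comparisons below sum the references of a family.

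Changes with 5-ClUrd were tested on the share of the family total, so that an equal rise at all sites of a family does not count as a change. A rise held back at the sites with the highest counts, or a changed mix of references, can still alter the share. Neither was tested. Counts in 9-base windows were fitted with edgeR's quasi-likelihood test, with the family total of the library as offset and Benjamini-Hochberg adjustment over all windows of tRNAs and rRNAs. A family entered with at least 20 counts in every fitted library. Fits scaled to library totals, TMM factors or size factors, given below, do not use the family total. They measure the amount of contact at a window and not its share of the family.

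In DUS1L the 5′ end share passed the test as higher with 5-ClUrd in tRNA-Thr-CGT and tRNA-Thr-TGT, 2 of the 3 threonine families. The calls were 2 higher and 0 lower of 27 family windows, beside 2.56% of all 508 windows tested (1.18% higher and 1.38% lower) and 1.98% of the tRNA windows. A further 10 family windows were higher at an unadjusted edgeR p under 0.05 only, making 12 higher and 0 lower. At that threshold all 508 windows gave 112 (78 higher and 34 lower), and the 202 tRNA windows gave 39 (32 higher and 7 lower). In tRNA-Thr-CGT the untreated libraries had 0 of 500 and 0 of 61 family counts at the 5′ end, and the 5-ClUrd libraries had 1820 and 950, or 6.43% and 5.20% (at least 11.1-fold higher, taking 3 counts over the untreated group as the limit; edgeR adjusted p = 0.0494). In tRNA-Thr-TGT the untreated libraries had 1 of 508 and 0 of 39 counts, and the 5-ClUrd libraries 10.5% and 10.6% (ratio 57.6, 95% counting interval 10.3 to 2275; edgeR adjusted p = 0.0494). The groups did not overlap in either family. The third threonine family, tRNA-Thr-AGT, stood at 2.17% and 0% untreated and at 7.43% and 5.34% with 5-ClUrd and did not pass. Over the 27 families both 5-ClUrd libraries lay above both untreated libraries in 19 and below both in 1. That 1 was tRNA-Lys-CTT, at 29.2% and 28.4% untreated and 15.5% and 24.3% with 5-ClUrd (log2 change -0.53 ± 0.59 (SE), edgeR adjusted p = 0.635). How many of all 508 windows separated likewise was not counted, so these counts are not shown to be particular to the 5′ end. The median log2 change was 2.67 over the 27 windows and 0.51 over all windows tested.

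Several DUS1L families had large differences that did not pass the test. tRNA-Val-TAC stood at 4.38% and 4.84% untreated and at 29.5% and 28.6% with 5-ClUrd (log2 change 2.67 ± 0.77 (SE), edgeR adjusted p = 0.0605). tRNA-Val-AAC stood at 10.3% and 67.2% untreated, the latter from 58 counts, and at 21.7% and 28.5% with 5-ClUrd (edgeR adjusted p = 0.763). The DUS1L calls depended on the thin second untreated library and on each 5-ClUrd library. Without the former, 23 of 35 windows were called higher. Without the first untreated library there were 10 higher and 1 lower, without the first 5-ClUrd library 0, and without the second 1.

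At single positions in DUS1L, 31 of 177 family positions rose and 0 fell, in 18 families (all positions tested: 6.33% called, 5.66% higher and 0.673% lower; tRNA positions: 6.15%). Acceptor stem positions made up 23 of 134 and junction positions 8 of 43. In 18 of the 31 the untreated libraries had 0 counts, so that only a lower bound of the change can be given. These 18 entered through their 5-ClUrd counts alone, since a position needed 10 counts summed over the 4 libraries. The 5-ClUrd libraries held 9.04 times the tRNA counts of the untreated ones, so rises could enter more easily than falls. All positions tested passed the same filter. For tRNA-Arg-TCT position 6 the untreated libraries had 0 and 0 counts and the 5-ClUrd libraries 291 and 153, at least 28.1-fold higher (edgeR adjusted p = 0.000582). Position 9 of tRNA-Thr-CGT held 5.03% and 4.39% with 5-ClUrd against 0 counts untreated, at least 8.94-fold higher (edgeR adjusted p = 0.0375). Position 6 of tRNA-Thr-TGT held 4.18% and 3.68%, at least 7.26-fold higher (edgeR adjusted p = 0.0292). Without the second untreated library 59 positions were higher and 2 lower of 219, and 24 of the 31 were among the calls. Without the first there were 8 higher and 5 lower, with 1 of the 31 among them.

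In DUS2L the 5′ end rose with 5-ClUrd in 12 families and fell in 3 of 42 tested, beside 15.4% of all 1196 windows called (8.11% higher and 7.27% lower) and 19.9% of the tRNA windows. The largest rises were in tRNA-Tyr-GTA and tRNA-Trp-CCA, followed by 3 arginine families. In tRNA-Trp-CCA the share was 0.477% and 1.23% untreated and 9.62% and 18.8% with 5-ClUrd (log2 change 3.96 ± 0.64 (SE), edgeR adjusted p = 0.000482). In tRNA-Tyr-GTA it was 1 of 169 and 0 of 179 counts untreated and 2.35% and 9.41% with 5-ClUrd (ratio 19.4, 95% counting interval 3.44 to 769; edgeR adjusted p = 0.0268). Both 5-ClUrd libraries lay above both untreated libraries in these families. Only 1 tRNA-Tyr-GTA reference had at least 100 counts in each 5-ClUrd DUS2L library, and its 5′ end share was 0.0411%. The tRNA-Tyr-GTA value therefore rests on references with fewer counts, and a changed mix of references was not tested. The same limit holds for tRNA-Trp-CCA, whose 2 references with at least 100 counts in each of these libraries stood at 0.156% and 23.4%.

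Of 5 arginine families tested, 3 rose in DUS2L. In tRNA-Arg-CCG the share was 12.5% and 10.1% untreated and 45.9% and 53.5% with 5-ClUrd (log2 change 2.14 ± 0.35 (SE), edgeR adjusted p = 0.000482). In tRNA-Arg-CCT it was 1.31% and 0.871% against 7.86% and 6.14% (log2 change 2.69 ± 0.57, edgeR adjusted p = 0.00358), and in tRNA-Arg-TCT 0.920% and 3.48% against 15.7% and 12.6% (2.65 ± 0.64, edgeR adjusted p = 0.00973). The other two, tRNA-Arg-ACG and tRNA-Arg-TCG, stayed under 1% in every DUS2L library.

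Single families of other amino acids also rose in DUS2L. The elongator family tRNA-Met-CAT went from 14.02% and 9.74% to 26.8% and 32.7% (log2 change 1.33 ± 0.32 (SE), edgeR adjusted p = 0.00968), and tRNA-Pro-TGG from 37.0% and 39.1% to 71.0% and 64.2% (0.83 ± 0.20, edgeR adjusted p = 0.00984). The other 2 proline families did not pass, tRNA-Pro-AGG with 9.73% and 9.22% untreated and 9.17% and 4.06% with 5-ClUrd, and tRNA-Pro-CGG with 6.61% and 10.3% untreated and 11.6% and 5.69% with 5-ClUrd. Of 9 type II families 3 rose: tRNA-Leu-TAG, from 9.86% and 10.5% to 19.2% and 23.4%, tRNA-Leu-TAA and tRNA-Ser-TGA. Of 33 other families 9 rose and 3 fell. The remaining 2 rises were in tRNA-Val-TAC and tRNA-Val-CAC. A changed mix of references was not tested in these families either. In tRNA-Met-CAT the 2 references with at least 100 counts in each 5-ClUrd DUS2L library stood at 0% and 30.6%.

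The 3 falls in DUS2L were in glycine and lysine tRNAs. tRNA-Gly-GCC stood at 65.6% and 62.1% untreated and at 22.8% and 28.5% with 5-ClUrd (log2 change -1.31 ± 0.25 (SE), edgeR adjusted p = 0.00152). tRNA-Lys-CTT stood at 47.6% and 59.4% untreated and at 23.7% and 28.7% with 5-ClUrd (-1.03 ± 0.29, edgeR adjusted p = 0.0201). tRNA-Gly-CCC stood at 63.3% and 60.2% untreated and at 41.9% and 41.0% with 5-ClUrd (-0.58 ± 0.13, edgeR adjusted p = 0.00652). The 5′ end counts themselves did not fall: tRNA-Gly-GCC had 613 and 690 untreated and 2108 and 2175 with 5-ClUrd. All 3 falls turned into differences above 0 without sites above 500 counts. They did so too when windows were scaled to library totals, TMM factors or size factors. These scalings measure the amount of contact and not the share of the family, so they do not test the fall in share.

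The number of DUS2L calls moved with single libraries and with the scaling. Without either untreated library, 0 of 42 windows were called, in fits that take the spread from the 5-ClUrd pair and assume that the lone untreated library varies likewise. The fitted changes themselves stayed near the reported ones in the 3 falls: -1.27 and -1.35 for tRNA-Gly-GCC, -1.18 and -0.86 for tRNA-Lys-CTT, and -0.54 and -0.61 for tRNA-Gly-CCC. Without a 5-ClUrd library it was 14 higher and 5 lower (first left out) and 9 higher and 4 lower of 40 (second left out). Scaled to library totals the split was 22 higher and 2 lower, with TMM factors 39 and 0, and with DESeq2 size factors 38 and 0. The median log2 change of all windows was -0.46 as reported, -2.195 with library totals, -0.64 with TMM factors and -0.31 with size factors.

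At single positions the DUS2L falls lay at positions 2 and 9. Of 233 family positions, 54 rose and 10 fell, beside 9.07% of all 3563 positions called (5.98% higher and 3.09% lower) and 10.7% of the tRNA positions. All 10 falls lay at position 2 (6 of 36 tested) or position 9 (4 of 36). At positions 3 to 8, 41 of 161 rose and 0 fell. Falls at position 2 or 9 and rises elsewhere in the 5′ end occurred in the same family in 7 of the 9 families with a fall.

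The families tRNA-Gly-TCC and tRNA-Glu-TTC had both falls and rises within the 5′ end. In tRNA-Gly-TCC position 2 fell from 41.7% and 40.04% to 16.0% and 12.5% (log2 change -1.52 ± 0.18 (SE), edgeR adjusted p = 1.919e-14), while position 3 rose from 5.62% and 5.22% to 11.2% and 10.1% (0.98 ± 0.25, edgeR adjusted p = 0.00232). In tRNA-Glu-TTC position 9 fell from 17.1% and 25.7% to 10.2% and 8.32% (-1.21 ± 0.21, edgeR adjusted p = 9.32e-07). Position 4 of the same family rose from 0.311% and 0.176% to 2.36% and 6.27% (4.16 ± 0.48, edgeR adjusted p = 1.525e-14), and position 5 from 0.155% and 0.117% to 1.33% and 4.22% (4.35 ± 0.61, edgeR adjusted p = 4.085e-10). In tRNA-Gly-GCC position 2 fell from 63.0% and 59.3% to 14.5% and 17.6% (-1.93 ± 0.25, edgeR adjusted p = 6.121e-12). There the whole 5′ end fell as well, from 65.6% and 62.1% to 22.8% and 28.5%. The sign at position 2 turned in tRNA-Gly-TCC with library totals (0.20), TMM factors (0.88) and size factors (0.66), and in tRNA-Gly-GCC with TMM factors (0.49) and size factors (0.27). These scalings measure amounts and not shares of the family. Without the first or second untreated DUS2L library 17 and 14 positions were called, 8 of them lower in each, and without the second 5-ClUrd library 36 were, 10 of them lower.

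**Figure D4:**
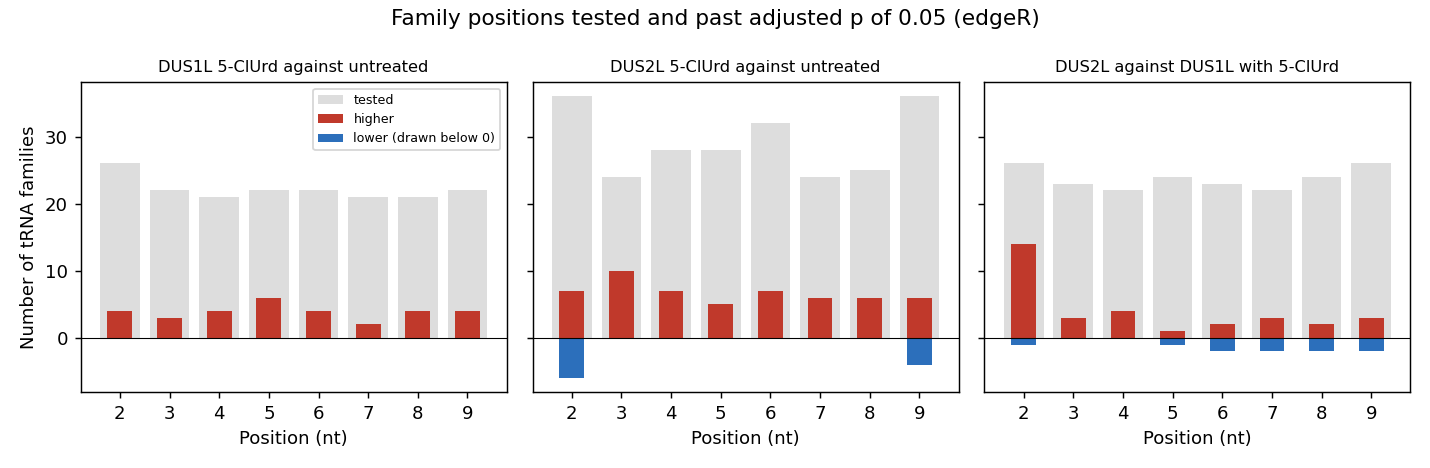
Number of tRNA families (y axis) tested and past an adjusted p of 0.05 (edgeR) at each position (x axis) in 3 comparisons. Grey bars are families tested, red bars families higher in the first-named group and blue bars below 0 families lower; in DUS2L with 5-ClUrd against untreated the blue bars stand only at position 2 (6 families) and position 9 (4 families).

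All 10 falling positions in DUS2L had a site above 1000 counts in some library, with a median highest site of 1154 counts. Of the 54 rising positions 11 had a site above 500 counts and 0 above 1000, with a median of 244.5. Of the 169 positions not called, 16 had a site above 1000. In the reference tRNA-Asp-GTC-2-8, position 9 had 1314 and 1348 counts in the untreated and 1428 and 1377 in the 5-ClUrd DUS2L libraries. In tRNA-Gly-CCC-2-1 position 9 had 1064 and 1136, then 1212 and 1436, and in tRNA-His-GTG-1-1 position 2 had 1260 and 1302, then 1233 and 1244. The tRNA totals of the same DUS2L groups rose 2.79-fold in the mean.

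Sites were also grouped by their untreated mean, which is the denominator of the ratio as well, so that counting error alone lowers the ratio as the level rises, by an amount that was not measured. Among DUS2L 5′ end sites with an untreated mean of 10 to 100 counts, the median ratio of 5-ClUrd to untreated was 7.55 (85 sites). It was 3.08 at 100 to 500 counts (44 sites) and 1.55 above 500 (17 sites, range 0.967 to 2.18). In DUS1L it was 15.2 at 10 to 100 counts (22 sites) and 4.67 at 100 to 500 (5 sites), beside a ratio of tRNA totals of 9.04. With every site dropped that exceeded 500 counts in 1 or more libraries, the fit gave 30 rises and 1 fall among 210 positions in DUS2L. What keeps counts per site under this level was not tested.

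**Figure D5:**
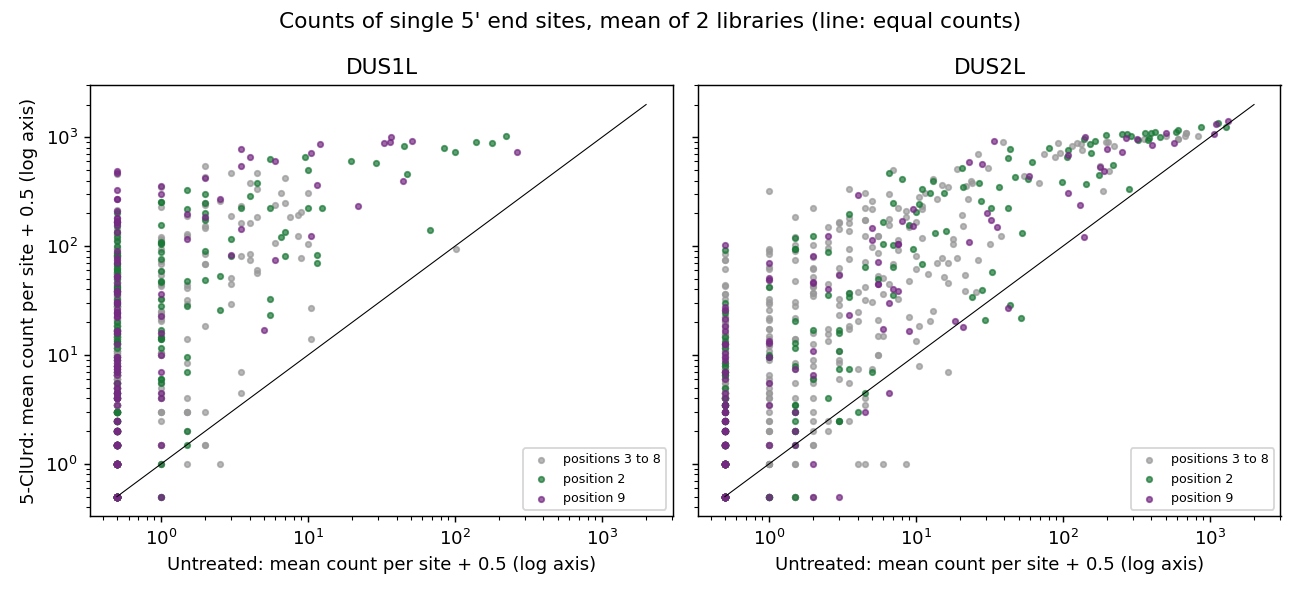
Mean count per 5′ end site of 2 libraries with 0.5 added, untreated (x axis, log) against 5-ClUrd (y axis, log), DUS1L on the left and DUS2L on the right. Green points are position 2, purple points position 9 and grey points positions 3 to 8, and the line marks equal counts; in DUS2L the points bend towards the line at the upper end, where 5-ClUrd counts stay below 1436.

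Between the enzymes with 5-ClUrd, the 5′ end was higher in DUS2L in 10 families and lower in 3 of 27 tested, beside 12.5% of all 1184 windows called (4.9% higher and 7.6% lower) and 15.8% of the tRNA windows. All 4 tested type II families were higher in DUS2L: tRNA-Ser-CGA at 9.80% and 17.7% against 1.42% and 0.871% in DUS1L (log2 difference 3.57 ± 0.61 (SE), edgeR adjusted p = 0.000986), tRNA-Ser-GCT, tRNA-Ser-TGA and tRNA-Leu-TAA. Of the other 23 families 6 were higher and 3 lower. tRNA-Met-CAT stood at 26.8% and 32.7% in DUS2L and 4.53% and 4.52% in DUS1L (2.72 ± 0.54, edgeR adjusted p = 0.00232), and tRNA-Arg-CCT at 7.86% and 6.14% against 0.669% and 1.34% (2.80 ± 0.65, edgeR adjusted p = 0.00692, but -0.038 with TMM factors).

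Of the families tested, those called lower in DUS2L were tRNA-Phe-GAA, tRNA-Arg-TCG and tRNA-Arg-ACG. Larger gaps in mean share lay in tRNA-Asp-GTC (-28.4 points), tRNA-Gly-GCC (-19.5) and tRNA-Gly-CCC (-7.35). These were not tested, since a family needed 20 counts in all 8 libraries, the untreated ones included. All of them had DUS2L sites above 1000 counts with 5-ClUrd, where site counts levelled off. For instance, tRNA-Gly-GCC-1-2 position 2 had 1175 and 1157 counts in DUS2L and 185 and 259 in DUS1L. The part of such sites in these gaps was not tested. Of the 42 families compared by share, 8 lay below DUS1L in both DUS2L libraries and 28 above. tRNA-Phe-GAA had 1 of 1105 and 0 of 1054 counts at the 5′ end in DUS2L with 5-ClUrd, and 1.89% and 1.60% in DUS1L (ratio 0.0259, 95% counting interval 0.000655 to 0.145; edgeR adjusted p = 0.0111). tRNA-Arg-TCG stood at 0.579% and 0.212% in DUS2L and at 2.42% and 2.73% in DUS1L (log2 difference -2.72 ± 0.72 (SE), edgeR adjusted p = 0.0164). tRNA-Arg-ACG stood at 0.629% and 0.786% against 3.76% and 3.90% (-2.43 ± 0.74, edgeR adjusted p = 0.0339).

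At single positions the enzymes differed most often at position 2. With 5-ClUrd 32 of 190 family positions were higher and 10 lower in DUS2L, beside 11.5% of all 3554 positions called (3.24% higher and 8.24% lower) and 16.7% of the tRNA positions. Position 2 was higher in 14 and lower in 1 of 26 families, positions 3 to 8 higher in 15 and lower in 7 of 138, and position 9 higher in 3 and lower in 2 of 26. In tRNA-Thr-TGT position 2 held 12.4% and 9.81% in DUS2L and 0.711% and 0.739% in DUS1L (log2 difference 3.93 ± 0.95 (SE), edgeR adjusted p = 0.00195). In tRNA-Leu-TAA it held 17.6% and 22.4% against 4.86% and 2.23% (2.498 ± 0.74, edgeR adjusted p = 0.0143).

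In tRNA-Ala-AGC position 2 held 11.4% and 12.9% in DUS2L and 0.635% and 1.94% in DUS1L (3.23 ± 0.85 on the log2 scale, edgeR adjusted p = 0.00479), while position 9 held 0.0421% and 0.0833% in DUS2L and 0.786% and 1.28% in DUS1L (-4.05 ± 1.03, edgeR adjusted p = 0.00352). In tRNA-Lys-CTT positions 5 to 8 were all lower in DUS2L; position 6 held 0.326% and 0.395% against 2.45% and 5.49% (-3.46 ± 0.92, edgeR adjusted p = 0.00531). tRNA-Arg-CCT position 9 held 4.52% and 2.38% in DUS2L against 7 and 1 counts in DUS1L (9.04 ± 1.20, edgeR adjusted p = 2.292e-10).

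Differences between the enzymes were also called without the analogue. Untreated, 11 of 27 family windows were higher in DUS2L and 0 lower, beside 5.74% of all 1184 windows called (1.6% higher and 4.14% lower) and 13.9% of the tRNA windows. tRNA-Val-TAC stood at 27.8% and 27.3% in DUS2L and 4.38% and 4.84% in DUS1L (log2 difference 2.60 ± 0.52 (SE), edgeR adjusted p = 0.00346), and tRNA-Met-CAT at 14.02% and 9.74% against 0.556% and 0.746% (4.31 ± 0.67, edgeR adjusted p = 0.000492).

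The enzyme calls moved with the scaling and with single libraries. With library totals the 5-ClUrd split became 6 higher and 6 lower, with TMM factors 3 and 6, and with size factors 14 and 6. Untreated it became 7 and 7, 4 and 8, and 16 and 3. For single positions it became 26 higher and 43 lower with library totals, 28 and 20 with TMM factors, and 90 and 23 with size factors. Without the first 5-ClUrd DUS1L library 1 of 27 windows was called with 5-ClUrd, and without the second 5 were. Without either 5-ClUrd DUS2L library it was 4, without either untreated DUS2L library 8, and without the first or the second untreated DUS1L library it was 21 and 24. Untreated, it was 3 and 4 without the first or second untreated DUS2L library, 7 and 19 without the first or second untreated DUS1L library, 7 and 6 without the first 5-ClUrd library of DUS1L or DUS2L, and 7 without the second of DUS2L. At single positions with 5-ClUrd, 2 were called without either 5-ClUrd DUS1L library, 20 without the second 5-ClUrd DUS2L library, and 80 without the second untreated DUS1L library.

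The effect of the analogue on the 5′ end differed between the enzymes in 1 of 27 families, tRNA-Ala-TGC, beside 0.676% of all 1184 windows called (0.338% higher and 0.338% lower) and 1.98% of the tRNA windows. In DUS1L its 5′ end share was 0 of 799 and 0 of 114 counts untreated and 2.22% and 5.58% with 5-ClUrd. In DUS2L it was 14 of 35 and 12 of 58 counts untreated and 17.2% and 24.3% with 5-ClUrd. The test of the difference gave an edgeR adjusted p of 0.0493, with 1 window called under TMM factors, higher in place of lower. Without the second untreated DUS1L library 10 windows were called (1 higher, 9 lower of 34), without the first 2 (both higher), and without any 1 of the other libraries 0. For no other tested family was the analogue's effect at the 5′ end shown to differ between the enzymes, and in simulated data the test found only 6% of 8-fold differences.

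The authors' deposited peak lists also placed peaks at the 5′ end. Per library, 5 of 98 and 1 of 37 tRNA peaks touched positions 1 to 9 in untreated DUS1L, and 23 of 216 and 17 of 179 with 5-ClUrd. In DUS2L it was 7 of 114 and 6 of 114 untreated, and 22 of 163 and 27 of 175 with 5-ClUrd. As a share of the tRNA peaks this was 2.703% to 6.14% in the untreated libraries and 9.497% to 15.4% in the 5-ClUrd libraries. A peak list grows with the counts of a library, and these shares were not tested.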

How the data were processed

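The deposited site files give a whole-number count per crosslink position and strand, and the deposited peak files an authors' score per peak; reads were mapped with STAR 2.7.0f to hg38, per the submitters' processing notes. How peaks were called and molecular identifiers handled is not given in the sources used here. Sense counts at tRNA positions 1 to 9 were summed by family and divided by the family total. Of 413 gene names, 390 matched RefSeq symbols (GRCh38.p14), the source of coordinates. No tRNA sequence was used here.

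Windows of 9 bases and single positions with at least 10 counts were fitted with edgeR 4.0.16 in R 4.3.3: quasi-likelihood test, log family total as offset, Benjamini-Hochberg adjustment, threshold 0.05. DUS1L and DUS2L treatment effects used 4 libraries each, the other comparisons 8. Shares were compared by an exact permutation test. Alternatives were other scalings, DESeq2 1.42.0, other minimum counts, high sites left out, a replicate block and each library left out. Named families were the largest called changes whose groups did not overlap (up to 8 in each direction), filled to 10 by highest 5-ClUrd share, and positions were chosen likewise; other families, positions and single references were picked after their values were seen. The members, lists and rules were chosen with earlier results of these data known.

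On simulated data, the window test recovered 63% (DUS1L) and 71% (DUS2L) of 8-fold changes, and 23% and 33% of 4-fold changes. Same-numbered libraries did not deviate together (r = -0.0452 over 246 windows in DUS1L and 0.032 over 646 in DUS2L), so the numbers were not taken as pairs.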

Additional observations from a re-analysis of the deposited data

Results flagged for a closer look

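The difference between the enzymes in the effect of 5-ClUrd on positions 1 to 9 passed the test in tRNA-Ala-TGC, with a fitted log2 difference of -11.14 (DUS2L minus DUS1L; SE 2.47; edgeR adjusted p = 0.0493). The 4 DUS1L libraries had 0, 0, 431 and 955 counts at these positions (untreated first), and the 4 DUS2L libraries 14, 12, 257 and 321. The size of the fitted value depends on the prior count added to the 0 counts of the untreated DUS1L libraries and is no measure of the change.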

How the results depend on the processing

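Calls were counted again under each alternative. Library totals, TMM factors and size factors replace the family total, so their calls and signs concern the amount of contact and not the family share. The 5′ end windows called for 5-ClUrd in DUS1L (2) were 10 with library totals, 5 with size factors, 8 with DESeq2, 6 with a minimum of 1 count, 0 with 50 counts or a family minimum of 50, 1 without sites above 500 counts, 1 with the replicate block and 8 with all 8 libraries, and 0 to 23 with a library left out. For DUS2L (15) they were 24, 39 with TMM factors, 38 with size factors, 9 with DESeq2 and 5 with all 8 libraries, and 0 to 19 with a library left out. Between the enzymes with 5-ClUrd (13) they were 20 with size factors, 1 with the family minimum, 4 without high sites and 7 with the replicate block, and 1 to 24 with a library left out. Untreated (11) they were 19, 2 and 3 for the first 3 of these, and 3 to 19. For the difference of effects (1) they were 3 with library totals, 4 with size factors and 0 with either minimum of 50, and 0 to 10.

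Positions called in DUS1L (31) were 77 with library totals, 11 with a minimum of 1 count, 11 without high sites and 17 with all 8 libraries, and 13 to 61 with a library left out. In DUS2L (64) they were 136, 157 with TMM factors, 150 with size factors, 31 without high sites and 15 with all 8 libraries, and 14 to 87. Between the enzymes (42) they were 69 with library totals, 113 with size factors, 23 without high sites and 1 with the replicate block, and 2 to 80. Peaks with their centre inside positions 1 to 9 numbered 71, against 108 that touched them. Share differences ranged from 3.55 to 5.00 points (DUS1L) and 2.28 to 8.40 (DUS2L) with a library left out.

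Signs turned as follows (log2). With library totals they were 0.28 (tRNA-Val-AAC window, DUS1L), 0.13, 0.42 and 0.88 (tRNA-Gly-CCC, tRNA-Gly-GCC and tRNA-Lys-CTT windows, DUS2L), -0.53 (tRNA-Ala-TGC window between enzymes), and, at DUS2L positions, 0.21 (tRNA-Gln-CTG 9), 1.64 (tRNA-Gln-TTG 9), 0.20 (tRNA-Gly-TCC 2), 0.55 (tRNA-Lys-CTT 2) and 1.05 (tRNA-Lys-TTT 2). With TMM factors the same DUS2L windows were 1.74, 2.04 and 2.51, windows between enzymes -1.03 (tRNA-Ala-TGC), -0.38 (tRNA-Arg-CCG), -0.038 (tRNA-Arg-CCT) and -0.37 (tRNA-Tyr-GTA), and the same DUS2L positions 0.87, 2.30, 0.88, 1.22 and 1.71, with 0.095 (tRNA-Gly-CCC 2) and 0.49 (tRNA-Gly-GCC 2). With size factors the windows were 2.09, 2.39 and 2.85 and the positions 0.67, 2.11, 0.66, 1.01 and 1.51, with 0.27 (tRNA-Gly-GCC 2). Without high sites they were 0.69 (tRNA-Val-AAC window), 0.16, 0.64 and 0.46 (the DUS2L windows), 0.041 (tRNA-Val-AAC 2, DUS1L), -0.020 (tRNA-Cys-GCA 2), -0.91 (tRNA-Gln-TTG 2), 1.34 and 0.21 (tRNA-Gly-CCC 2 and 9), 1.39 (tRNA-Gly-TCC 2) and 6.12 (tRNA-Lys-TTT 2). With a library left out, tRNA-Val-AAC in DUS1L ranged from -1.42 to 1.28 (window) and from -2.11 to 0.83 (position 2), the higher value without the second untreated library, and tRNA-Gln-TTG 2 in DUS2L from -0.060 to 0.15, the lower value without the first untreated library. The causes were not tested. The base at 5′ end sites was not run, since no tRNA sequence was used here. Depth limits DUS1L most: its second untreated library held 7333 tRNA counts.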
